A study of Homo sapiens with 24 samples.

Results

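The 34 genes described here make cholesterol and fatty acids, control that synthesis or move sterol, and they belong to the pathway of the sterol regulatory element binding proteins (SREBPs). They were chosen by gene symbol from a list of pathway members, and all 34 were present among the 26450 genes of the deposited table. By role, 18 are enzymes of the sterol branch, 9 are enzymes of the fatty acid branch, 3 are regulators (SREBF1, SREBF2 and INSIG1) and 4 are transport genes (STARD4, NPC1, ABCA1 and ABCG1).

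SREBF1 and SREBF2 encode membrane-bound transcription factors that sit in the endoplasmic reticulum with an escort protein. When that membrane is poor in cholesterol, the escort carries them to the Golgi, where proteases release the part that enters the nucleus and raises transcription of lipid synthesis genes. When cholesterol is plentiful, INSIG proteins hold the complex back. The product of SREBF2 is best known for driving sterol enzymes and that of SREBF1 for driving fatty acid enzymes, and INSIG1 is itself a target of both. ABCA1 and ABCG1 export cholesterol and are driven by the oxysterol-sensing liver X receptors, so they are known for moving against the synthesis genes when the cholesterol content of a cell changes.

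RNA was sequenced from 2 established human epithelial lines, PANC-1, from a pancreatic duct carcinoma, and HEK293T, an embryonic kidney line that carries a viral large T antigen. There were 8 groups of 3 libraries, 24 in all, since both lines were cultured in each of 4 formats. These formats were DRCC (dual-axis rotating capillary containers) at a speed of 30 rpm, DRCC at 1 rpm, AggreWell plates, in which cells gather in microwells as spheroids, and 2D culture. The labels used here give no genotype beyond the line and no treatment, medium or time in culture, and nothing in them says that the 3 libraries of a group came from separate cultures, so the spread behind every p-value is that between libraries and may be technical.

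Values are FPKM, fragments counted per kilobase of a transcript and scaled to the size of its library, so levels of different genes may be set side by side per length. Recovered depth ran from 32021638 to 39556154 fragments per library. Replicate libraries differed by more than counting noise, with a chi-square per degree of freedom from 2.84 to 10.4 per pair. The pairs with PANC-1 2D library 1, HEK293T DRCC 1 rpm library 2 and HEK293T 2D library 2 lay above the others, at 7.18 to 10.4 against 2.84 to 4.65. Leaving out any 1 library moved no count of changed members given below by more than 2. Marker genes of the lines, as mean log2(FPKM + 1) of 6 PANC-1 genes minus that of 4 HEK293T genes, gave 0.111 to 1.35 in the PANC-1 libraries and −3.13 to −2.29 in the HEK293T libraries. This difference moved with format: it averaged 0.121 at 30 rpm, 0.273 at 1 rpm, 0.837 in AggreWell plates and 1.30 in 2D in PANC-1, and −3.11, −3.09, −2.62 and −2.35 in the same order in HEK293T, with SDs from 0.0112 to 0.0737. Its part in the members' changes was not tested. Mitochondrially encoded genes took 1.60% of fragments in PANC-1 at 30 rpm, 2.37% at 1 rpm, 4.28% in AggreWell plates and 4.33% in 2D, and 4.23%, 3.47%, 3.51% and 4.77% in the same order of formats in HEK293T. Because FPKM relates each gene to its library's total, such shifts touch all other genes, and their part in the results was not tested beyond the counts with those 13 genes left out. In these bulk libraries fewer cells that express a gene and less RNA per cell cannot be told apart.

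Upstream sequence is shown for 6 members whose levels carry the results below: a regulator with a complete SREBP site (SREBF2), a regulator and enzymes with large changes (INSIG1, HMGCS1, MSMO1 and SCD), and an exporter (ABCA1). Each run is the 250 bases before the RefSeq start of the gene in build GRCh38.p14, read 5′ to 3′ on the gene's own strand: chr22:41832855-41833104 on the plus strand for SREBF2, chr7:155297628-155297877 on the plus strand for INSIG1, chr5:43313413-43313662 on the minus strand for HMGCS1, chr4:165327419-165327668 on the plus strand for MSMO1, chr10:100346983-100347232 on the plus strand for SCD and chr9:104928156-104928405 on the minus strand for ABCA1. HMGCS1 has 2 starts in the table, and the run shown is that of the start farther upstream, while the window of the other holds no CCAAT. Capitals mark matches to TCACNCCAC, the letters of an SREBP site, and to CCAAT, the box bound by the cofactor NF-Y, on either strand, so that ATTGG is CCAAT read on the opposite strand.
SREBF2: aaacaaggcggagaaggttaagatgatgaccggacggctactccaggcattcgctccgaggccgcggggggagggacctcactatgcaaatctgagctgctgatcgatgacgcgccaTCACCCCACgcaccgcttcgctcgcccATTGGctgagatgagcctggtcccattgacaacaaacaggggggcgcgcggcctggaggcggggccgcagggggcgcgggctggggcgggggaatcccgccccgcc
INSIG1: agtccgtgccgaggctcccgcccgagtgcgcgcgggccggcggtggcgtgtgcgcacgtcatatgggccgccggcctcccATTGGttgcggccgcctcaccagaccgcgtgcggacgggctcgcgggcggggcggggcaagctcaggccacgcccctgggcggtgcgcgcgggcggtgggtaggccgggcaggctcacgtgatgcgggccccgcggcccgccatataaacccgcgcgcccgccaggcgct
HMGCS1: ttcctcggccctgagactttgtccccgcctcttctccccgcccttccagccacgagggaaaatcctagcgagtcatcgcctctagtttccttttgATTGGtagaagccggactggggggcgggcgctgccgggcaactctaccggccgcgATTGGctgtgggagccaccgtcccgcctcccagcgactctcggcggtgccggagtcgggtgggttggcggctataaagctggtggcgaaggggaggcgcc
MSMO1: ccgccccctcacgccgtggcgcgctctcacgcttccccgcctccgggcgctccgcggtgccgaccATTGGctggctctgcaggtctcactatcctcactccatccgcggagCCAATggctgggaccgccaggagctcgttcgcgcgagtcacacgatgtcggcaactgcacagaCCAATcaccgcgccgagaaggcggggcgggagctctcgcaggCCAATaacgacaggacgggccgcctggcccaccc
SCD: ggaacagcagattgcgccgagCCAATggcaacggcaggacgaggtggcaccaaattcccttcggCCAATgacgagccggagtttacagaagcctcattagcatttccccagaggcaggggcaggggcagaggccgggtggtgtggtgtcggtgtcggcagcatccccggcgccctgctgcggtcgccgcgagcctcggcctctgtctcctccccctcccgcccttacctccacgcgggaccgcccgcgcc
ABCA1: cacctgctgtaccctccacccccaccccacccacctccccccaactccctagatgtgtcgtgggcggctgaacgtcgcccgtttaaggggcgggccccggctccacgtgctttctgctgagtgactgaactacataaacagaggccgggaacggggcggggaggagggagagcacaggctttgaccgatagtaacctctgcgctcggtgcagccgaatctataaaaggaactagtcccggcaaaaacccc
The SREBF2 window holds TCACCCCAC with its first letter 133 bases before the start, and an ATTGG that begins 106 bases before it, so the matches do not overlap. MSMO1 holds 4 CCAAT boxes and HMGCS1 and SCD hold 2 each, while INSIG1 holds 1 and ABCA1 holds none.

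Windows of this kind were read for 29 of the 34 members, 39 windows in all, since some genes have several starts, and a gene counts as holding a motif where any of its windows does. FDFT1, SQLE, ACAT2, FASN and ABCG1 have no entry. TCACNCCAC was present in 1 of the 29, SREBF2, and in 1.09% of 27305 genes with a window. CCAAT was present in 21 of the 29, or 72.4%, against 37% of all 27305 genes. Among the 10703 genes with a window and at least 1 FPKM in at least 3 of the 24 libraries, the share was 41.5%. It was found in 13 of 15 sterol enzymes (not in PMVK and CYP51A1), in 5 of 8 fatty acid enzymes (not in ELOVL6, FADS1 and FADS2), in 2 of 3 regulators (not in SREBF1) and in 1 of 3 transport genes, STARD4. GGGCGG, the GC box, was present in 28 of 29, against 75.9% of those 10703 genes. These matches describe letters in 250 bases, and no binding was measured.

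By mean level, the format with the most RNA differed between the lines. In PANC-1, 24 of the 34 genes were highest in DRCC at 1 rpm, against 4 at 30 rpm, 1 in AggreWell plates and 5 in 2D, and 19 were lowest in AggreWell plates. In HEK293T, none was highest at 30 rpm, 6 were highest at 1 rpm, 13 in AggreWell plates and 15 in 2D, and 15 were lowest at 30 rpm. Summed over the 18 sterol enzymes, PANC-1 held 431.8 ± 2.03 FPKM at 30 rpm, 548.8 ± 4.33 at 1 rpm, 355.6 ± 1.41 in AggreWell plates and 415.0 ± 9.07 in 2D (SD, n = 3 each). HEK293T held 368.0 ± 5.22, 364.2 ± 3.75, 626.5 ± 1.23 and 629.5 ± 4.55 FPKM in the same order. The 9 fatty acid enzymes summed to 534.0 ± 2.54, 820.8 ± 2.87, 341.0 ± 2.12 and 361.5 ± 5.86 FPKM in PANC-1, and to 271.5 ± 2.73, 293.1 ± 2.04, 596.1 ± 2.41 and 544.3 ± 3.46 FPKM in HEK293T. The fatty acid sum is led by SCD, the desaturase that makes oleate, which alone averaged 571 ± 4.55 FPKM in PANC-1 at 1 rpm and 276 ± 1.69 FPKM in HEK293T AggreWell plates.

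**Figure D1:**
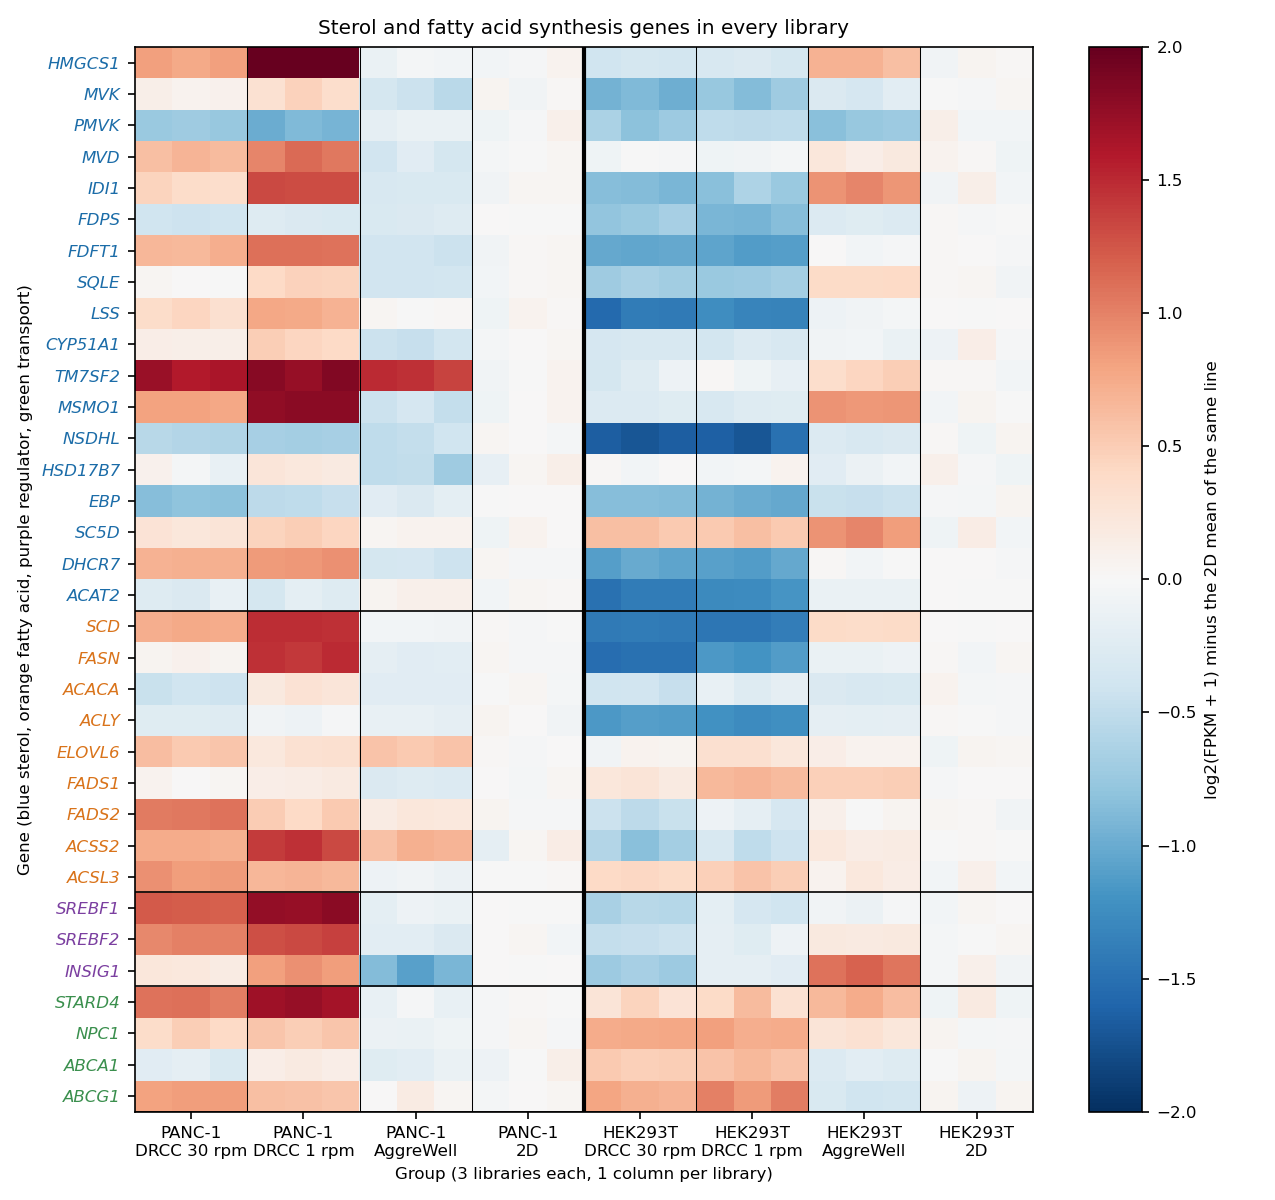
Each row is 1 of the 34 genes and each column 1 of the 24 libraries, and colour gives log2(FPKM + 1) minus the mean of the same line's 2D libraries, on a scale from −2 (blue) to 2 (red). In PANC-1 the 1 rpm columns are the reddest, with 24 of 34 genes highest there, and in HEK293T the DRCC columns are blue for most sterol enzymes.

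Differences were tested with limma on log2(FPKM + 1) over all genes with at least 1 FPKM in at least 3 of the libraries fitted. Genes with a Benjamini-Hochberg adjusted p under 0.05 were taken as changed, and on this scale a log2 fold change understates the change of genes with low FPKM. In PANC-1, 33 of the 34 members were tested and ABCG1 fell below the filter, while in HEK293T all 34 were tested. ABCG1 in PANC-1 had 0.842, 0.882 and 0.875 FPKM at 30 rpm, 0.599, 0.582 and 0.546 at 1 rpm, 0.0615, 0.171 and 0.0832 in AggreWell plates and 0.0242, 0.0515 and 0.0777 in 2D. The last of these levels rest on 11 to 34 fragments per library. Every library of both DRCC speeds lay above every AggreWell and 2D library.

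DRCC at 1 rpm against 2D in PANC-1 gave higher RNA for most of the pathway. Sterol enzymes, fatty acid enzymes, the 3 regulators and the 3 tested transport genes had a median log2 fold change above 0. Of the 33 members tested, 27 rose, 5 fell and 1 did not pass, against 86.2% of all 11585 genes changed, 52.3% higher and 33.9% lower. The members' median log2 fold change was 0.54, beside 0.15 for all genes tested. The mitochondrially encoded share was lower at 1 rpm than in 2D (2.37% against 4.33%), and with those genes left out 32 members passed. With so large a share of all genes changed, the number of members that passed says little about them, and the sizes and directions are what is given here.

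Among the regulators, SREBF1 had 70.7, 70.3 and 73.2 FPKM at 1 rpm and 20.3, 20.1 and 20.2 FPKM in 2D. SREBF2 had 23.0, 23.5 and 24.3 FPKM at 1 rpm and 8.90, 9.10 and 8.48 FPKM in 2D. The groups did not overlap for either gene, with log2 fold changes of 1.77 ± 0.029 for SREBF1 (SE, limma adjusted p = 4.8e-15) and 1.32 ± 0.037 for SREBF2 (adjusted p = 6.6e-13). INSIG1, which retains the SREBP complex, also rose, to a mean of 47.9 FPKM at 1 rpm against 26.1 FPKM in 2D.

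Of the 18 sterol enzymes, 13 rose and 5 fell at 1 rpm, with a median log2 fold change of 0.45. HMGCS1, which makes the HMG-CoA that feeds the pathway, had 27.7, 28.1 and 27.8 FPKM at 1 rpm and 5.96, 6.15 and 6.64 FPKM in 2D, a log2 fold change of 1.99 ± 0.039 (limma adjusted p = 2.5e-14). MSMO1, which removes methyl groups from early sterols, had 52.5, 53.7 and 53.6 FPKM at 1 rpm and 13.8, 14.8 and 15.4 FPKM in 2D. Neither gene's groups overlapped, and the 1 rpm means were also the highest of the 4 formats. The other large increases were those of TM7SF2, a sterol reductase (1.80), MSMO1 (1.79), IDI1, the isopentenyl diphosphate isomerase (1.31), and FDFT1, squalene synthase (1.10), all as log2 fold changes. The 5 that fell were PMVK, phosphomevalonate kinase (−0.94), NSDHL, a sterol dehydrogenase (−0.67), EBP, a sterol isomerase (−0.49), FDPS, farnesyl diphosphate synthase (−0.28), and ACAT2, which joins acetyl-CoA units (−0.26). FDPS and HSD17B7 have near-identical pseudogene copies elsewhere in the genome, and ACAT2 overlaps a gene on the opposite strand, so their values depend on how shared fragments were counted.

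Of the 9 fatty acid enzymes, 8 rose, 0 fell and 1 did not pass at 1 rpm, with a median of 0.47. SCD had 575, 572 and 566 FPKM at 1 rpm and 209.8, 203 and 204 FPKM in 2D. FASN, the fatty acid synthase, had 101, 98.1 and 104 FPKM at 1 rpm and 37.0, 35.7 and 35.6 FPKM in 2D. For both genes the lowest 1 rpm library stood well above the highest 2D library, with log2 fold changes of 1.47 ± 0.021 (limma adjusted p = 1.4e-15) and 1.46 ± 0.028 (adjusted p = 1.9e-14). ACSS2, which turns acetate into acetyl-CoA, followed with 1.39 and ACSL3, a synthetase of long-chain acyl-CoA, with 0.66. ACLY, which makes acetyl-CoA from citrate, was the enzyme that did not pass, with 38.2, 37.3 and 39.8 FPKM at 1 rpm and 41.8, 40.6 and 38.4 FPKM in 2D. With median-ratio scaling 6 of the 9 rose and 2 fell, and with voom on recovered fragments 8 rose and 1 fell.

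STARD4, a carrier of sterol between membranes, had 5.87, 6.07 and 5.71 FPKM at 1 rpm and 1.08, 1.16 and 1.11 FPKM in 2D, a log2 fold change of 1.70 ± 0.049 (limma adjusted p = 8.5e-13). NPC1, which lets cholesterol out of lysosomes, rose (0.54, or 0.32 with median-ratio scaling, where ACSL3 was at 0.44). The exporter ABCA1 had 1.08, 1.15 and 1.09 FPKM at 1 rpm and 0.770, 0.899 and 1.05 FPKM in 2D. With quantile normalization 2 of the 3 rose and 1 fell, and ABCA1, whose groups did not overlap, reached 1 FPKM in the 1 rpm libraries and in 1 2D library only, so its passing the filter came from the group where it is high.

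In DRCC at 30 rpm against 2D in PANC-1, the regulators rose. The sterol enzymes divided much as all genes did, and the share of the 9 fatty acid enzymes that rose was also near that of all genes. Nothing particular to either branch is read from these counts. 21 of 33 members rose, 8 fell and 4 did not pass, against 85.8% of all genes changed, 53.6% higher and 32.2% lower. The members' median was 0.37, beside 0.17 for all genes. Sterol enzymes split into 10 that rose and 5 that fell, with a median of 0.19, while 6 of 9 fatty acid enzymes rose and 2 fell, with a median of 0.57.

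TM7SF2 had 20.6, 18.7 and 19.2 FPKM at 30 rpm and 5.21, 5.51 and 5.88 FPKM in 2D, the largest increase among the members (1.65 ± 0.049, limma adjusted p = 1.2e-12). EBP had 30.0, 30.8 and 30.8 FPKM at 30 rpm and 54.3, 55.4 and 55.0 FPKM in 2D, with a log2 fold change of −0.83 ± 0.028 (adjusted p = 3.9e-12). Both enzymes act on sterol rings downstream of lanosterol, and for each the groups lay apart, in opposite directions. HMGCS1 (0.80) and MSMO1 (0.79) rose less than at 1 rpm, and PMVK fell (−0.74). Among the fatty acid enzymes FADS2, a desaturase of polyunsaturated fatty acids, rose most (1.06), with 33.8, 34.2 and 34.8 FPKM at 30 rpm and 16.4, 15.7 and 15.5 FPKM in 2D. ACSL3 (0.87), SCD (0.74) and ACSS2 (0.73) also rose. The regulators SREBF1 (1.21) and SREBF2 (1.00) rose, as did STARD4 (1.07) and NPC1 (0.42). ABCA1, which entered the fit through the 1 rpm libraries and 1 2D library, had 0.625, 0.677 and 0.548 FPKM at 30 rpm and 0.770, 0.899 and 1.05 FPKM in 2D. Under other settings NPC1 was at 0.20 (median-ratio scaling) and 0.22 (quantile normalization), ACSS2 at 0.40 (quantile normalization) and STARD4 at 1.63 (voom).

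The split at 30 rpm depended on scaling. With median-ratio scaling, which brought the median of all genes to −0.03, 17 members rose and 13 fell, the sterol enzymes divided 8 against 8 and the fatty acid enzymes 5 against 4, and with quantile normalization the sterol enzymes divided 8 against 7.

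Between the DRCC speeds in PANC-1, most members were lower at 30 rpm. 5 of 33 rose, 27 fell and 1 did not pass, against 68.1% of all genes changed, 36.2% higher and 31.9% lower, with medians of −0.33 for the members and 0.02 for all genes. 15 of 18 sterol enzymes fell and 2 rose, or 15 and 0 with mitochondrially encoded genes left out. FASN had 37.6, 38.4 and 37.6 FPKM at 30 rpm and 101, 98.1 and 104 FPKM at 1 rpm, the largest difference of the members (−1.39 ± 0.028, limma adjusted p = 4.5e-13), and no 30 rpm library reached any 1 rpm library. HMGCS1 (−1.19), MSMO1 (−1.0), IDI1 (−0.92), FDFT1 (−0.42) and SQLE, squalene epoxidase (−0.42), led the sterol branch. In the fatty acid branch SCD (−0.73), ACSS2 (−0.67) and ACACA, the acetyl-CoA carboxylase (−0.66), fell. FADS2 (0.59) and ELOVL6, which lengthens palmitate (0.29), rose against the rest of their branch. INSIG1 (−0.65), SREBF1 (−0.56) and STARD4 (−0.63) were lower at 30 rpm as well.

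In AggreWell plates against 2D in PANC-1, most members were lower, by small amounts. 4 of 33 rose, 24 fell and 5 did not pass, against 70.0% of all genes changed, 45.9% higher and 24.1% lower. The members' median was −0.21, beside 0.098 for all genes. INSIG1 had 13.8, 11.8 and 13.3 FPKM in AggreWell plates and 26.2, 25.8 and 26.3 FPKM in 2D, with no overlap and a log2 fold change of −0.96 ± 0.045 (limma adjusted p = 6.8e-10). SREBF2 also fell (−0.24). Of the sterol enzymes 13 fell, led by HSD17B7, a sterol ketone reductase (−0.57), NSDHL (−0.46), MVK, mevalonate kinase (−0.44), and CYP51A1, the lanosterol demethylase (−0.43). TM7SF2 was the 1 sterol enzyme that rose (1.44), with 17.4, 16.9 and 15.7 FPKM in AggreWell plates and 5.21, 5.51 and 5.88 FPKM in 2D. Among the fatty acid enzymes ACSS2 (0.66) and ELOVL6 (0.55) rose and FADS1, a desaturase like FADS2 (−0.27), and ACACA (−0.22) fell.

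ABCA1 (−0.19) and NPC1 (−0.11) fell in PANC-1 AggreWell plates, and both depended on the processing. ABCA1 did not pass without PANC-1 2D library 3 (−0.14, limma adjusted p = 0.077) or without AggreWell library 1 (−0.17, adjusted p = 0.056), and NPC1 did not pass without 2D library 2, without AggreWell library 2 or with mitochondrially encoded genes left out (−0.02, adjusted p = 0.64). Other settings gave larger falls that passed, with ABCA1 at −0.39 (pseudocount of 0.1), −0.42 (quantile normalization) and −0.43 (voom) and NPC1 at −0.28 (median-ratio scaling) and −0.24 (quantile normalization). SREBF2 ran from −0.41 (median-ratio scaling) to −0.15 (mitochondrially encoded genes left out), FADS1 from −0.46 to −0.17 and ACACA from −0.39 to −0.13 between the same settings, and with quantile normalization MVK was at −0.67 and ELOVL6 at 0.31. With mitochondrially encoded genes left out, 7 members rose and 18 fell, with 4 and 12 among the sterol enzymes and 3 and 3 among the fatty acid enzymes.

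Set against AggreWell plates, both DRCC speeds gave higher RNA for most members in PANC-1. At 30 rpm 23 of 33 rose and 7 fell, against 83.3% of all genes changed, 45.4% higher and 37.8% lower, with medians of 0.53 and 0.052. At 1 rpm 27 rose and 5 fell, against 82.0% of all genes, 43.7% higher and 38.4% lower, with medians of 0.76 and 0.035. The sterol median was 0.46 at 30 rpm and 0.79 at 1 rpm, and the fatty acid median was 0.28 at 30 rpm and 0.46 at 1 rpm. HMGCS1 was 0.88 higher at 30 rpm and 2.07 higher at 1 rpm on the log2 scale, and MSMO1 was 1.20 higher at 30 rpm and 2.2 higher at 1 rpm. Among the regulators SREBF1 was 1.35 higher at 30 rpm and 1.92 higher at 1 rpm, SREBF2 was 1.23 higher at 30 rpm and INSIG1 1.81 higher at 1 rpm. SCD had 342, 348 and 344 FPKM at 30 rpm, 575, 572 and 566 FPKM at 1 rpm and 197, 197 and 195 FPKM in AggreWell plates. DHCR7, which catalyses a last reduction on the way to cholesterol, had 61.9, 62.6 and 62.4 FPKM at 30 rpm and 29.4, 29.7 and 27.9 FPKM in AggreWell plates. No AggreWell library of either gene reached a DRCC library, and the log2 fold changes were 0.81 ± 0.021 for SCD at 30 rpm (SE, limma adjusted p = 3.9e-13), 1.54 ± 0.021 for SCD at 1 rpm (adjusted p = 1.5e-15) and 1.08 ± 0.030 for DHCR7 (adjusted p = 8.1e-13). These comparisons share the DRCC and AggreWell libraries with those above, so they are no separate evidence.

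**Figure D2:**
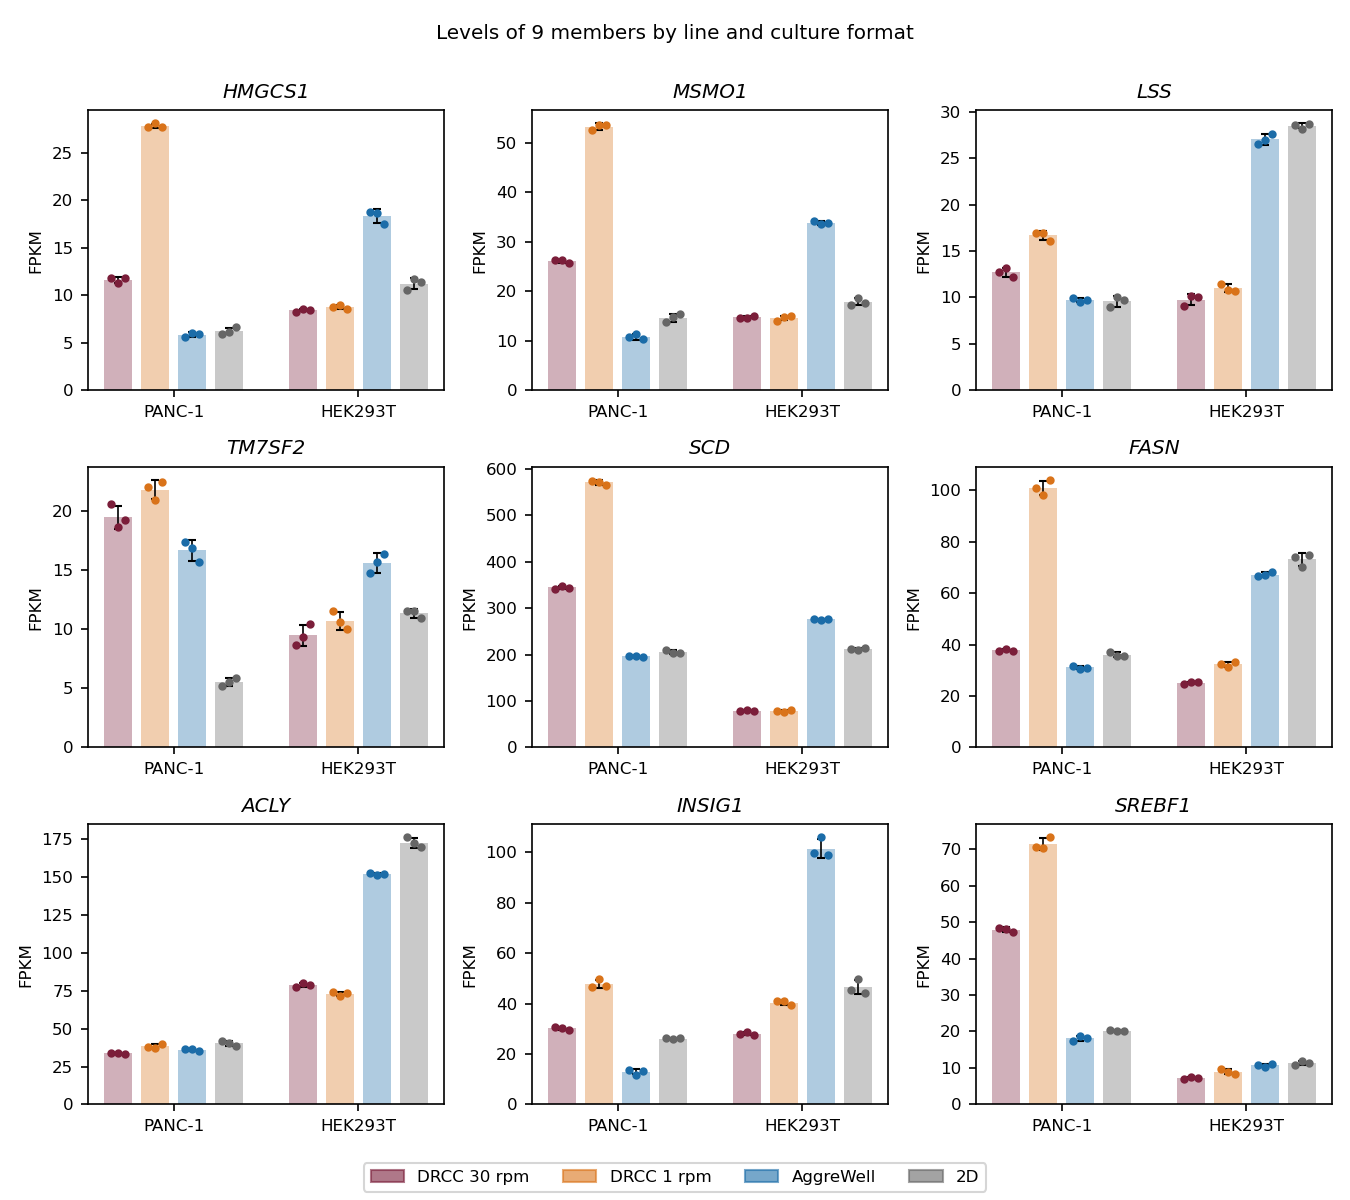
Bars give mean FPKM with SD (n = 3) and points the libraries for HMGCS1, MSMO1, LSS, TM7SF2, SCD, FASN, ACLY, INSIG1 and SREBF1, with formats from DRCC 30 rpm to 2D in each line. HMGCS1, MSMO1, SCD and FASN peak at 1 rpm in PANC-1, while ACLY, LSS, SCD and INSIG1 are lower at both DRCC speeds than in AggreWell plates in HEK293T.

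In HEK293T, most enzymes of both synthesis branches and the regulators were lower in DRCC at 30 rpm than in 2D. 7 of 34 members rose, 24 fell and 3 did not pass, against 85.0% of 12548 genes changed, 49.6% higher and 35.5% lower. The members' median log2 fold change was −0.53, beside 0.13 for all genes. 15 of 18 sterol enzymes fell, with a median of −0.73, and 6 of 9 fatty acid enzymes fell, with a median of −0.47.

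SREBF1 had 6.86, 7.42 and 7.31 FPKM at 30 rpm and 10.9, 11.8 and 11.5 FPKM in 2D. INSIG1 had 27.8, 28.9 and 27.6 FPKM at 30 rpm and 45.4, 49.8 and 44.4 FPKM in 2D. Both fell without overlap, with log2 fold changes of −0.59 ± 0.052 for SREBF1 (SE, limma adjusted p = 1.5e-07) and −0.71 ± 0.042 for INSIG1 (adjusted p = 2.6e-09).

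NSDHL led the sterol branch, with 8.61, 8.22 and 8.62 FPKM at 30 rpm and 29.9, 27.4 and 30.5 FPKM in 2D, a log2 fold change of −1.67 ± 0.053 (limma adjusted p = 5.1e-12). LSS, lanosterol synthase, had 9.05, 10.2 and 10.1 FPKM at 30 rpm and 28.5, 28.2 and 28.7 FPKM in 2D (−1.45 ± 0.042, adjusted p = 2.4e-12). In both, all 30 rpm libraries lay below all 2D libraries. ACAT2 (−1.43), DHCR7 (−1.05) and FDFT1 (−1.03) followed. SC5D, a late sterol desaturase, was the 1 sterol enzyme that rose (0.57), with 14.1, 14.1 and 13.3 FPKM at 30 rpm and 8.43, 9.97 and 8.53 FPKM in 2D. With mitochondrially encoded genes left out, 3 sterol enzymes rose and 14 fell.

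In the fatty acid branch FASN had 24.8, 25.3 and 25.4 FPKM at 30 rpm and 74.2, 70.3 and 74.6 FPKM in 2D, and SCD had 79.6, 80.2 and 78.9 FPKM at 30 rpm and 213, 211 and 214 FPKM in 2D. ACLY had 77.7, 80.4 and 78.8 FPKM at 30 rpm and 176, 173 and 169.8 FPKM in 2D. The 2D libraries exceeded all 30 rpm libraries for each of the 3 genes, with log2 fold changes of −1.50 ± 0.031 for FASN, −1.41 ± 0.021 for SCD and −1.12 ± 0.023 for ACLY (SE, limma adjusted p = 1.3e-13, 9.6e-15 and 1.4e-13). ACSS2 also fell (−0.70), while ACSL3 rose (0.40). With median-ratio scaling 1 of the 9 rose and 7 fell.

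Among the transport genes NPC1 had 13.2, 13.4 and 13.6 FPKM at 30 rpm and 7.89, 7.32 and 7.34 FPKM in 2D (0.76 ± 0.039, limma adjusted p = 6.3e-10). ABCG1 had 2.31, 2.15 and 2.08 FPKM at 30 rpm and 0.985, 0.798 and 0.987 FPKM in 2D, and ABCA1 had 1.41, 1.35 and 1.37 FPKM at 30 rpm and 0.670, 0.750 and 0.638 FPKM in 2D. For none of these 3 genes did the groups overlap. ABCA1 and ABCG1 passed the filter of 1 FPKM in HEK293T only through the DRCC libraries, where they are high, so they had to differ: their levels are given with no test, and no count or median over the transport genes is read. They are 2 of the members counted as risen here, and the same limit holds for them in each HEK293T comparison of a DRCC speed with 2D or AggreWell plates.

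In DRCC at 1 rpm against 2D in HEK293T, most sterol enzymes fell. All 3 regulators fell by small amounts, with log2 fold changes from −0.31 to −0.17, and SREBF1 and INSIG1 depended on scaling as given below. The fall of SREBF2 was the smallest, and its values under other scalings are not given. 8 of 34 members rose, 23 fell and 3 did not pass, against 84.8% of all genes changed, 53.1% higher and 31.7% lower, with medians of −0.31 and 0.18. 14 of 18 sterol enzymes fell (median −0.73), and 6 of 9 fatty acid enzymes fell while 3 rose (median −0.21). NSDHL (−1.61), LSS (−1.30), ACAT2 (−1.24), FDFT1 (−1.10) and DHCR7 (−1.08) fell, and SC5D rose (0.55). SCD had 77.7, 77.3 and 80.6 FPKM at 1 rpm and 213, 211 and 214 FPKM in 2D, and ACLY had 74.2, 71.6 and 73.4 FPKM at 1 rpm and 176, 173 and 169.8 FPKM in 2D. Those groups lay apart, with log2 fold changes of −1.43 ± 0.021 for SCD and −1.23 ± 0.023 for ACLY, and FASN fell as well (−1.15). FADS1 rose (0.65), with 49.9, 51.1 and 49.5 FPKM at 1 rpm and 31.1, 31.8 and 31.6 FPKM in 2D. NPC1 rose among the transport genes (0.76), to 14.1, 13.1 and 13.2 FPKM at 1 rpm against 7.89, 7.32 and 7.34 FPKM in 2D. With median-ratio scaling NPC1 was at 0.49 and FADS1 at 0.36. SREBF1 fell (−0.31), and ran from −0.58 with median-ratio scaling to −0.16 with mitochondrially encoded genes left out. INSIG1 also fell (−0.20), was at −0.49 with median-ratio scaling (limma adjusted p = 5.6e-08), and did not pass with quantile normalization (−0.05, limma adjusted p = 0.29) or with mitochondrially encoded genes left out (−0.03, adjusted p = 0.52).

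Between the DRCC speeds in HEK293T, the regulators and 7 of 9 fatty acid enzymes were lower at 30 rpm and most sterol enzymes did not pass. At 30 rpm 3 of 34 members were higher than at 1 rpm, 15 lower and 16 did not pass, against 52.6% of all genes changed, 19.6% higher and 32.9% lower, with medians of −0.12 and −0.04. ACLY rose against its branch (0.11), with 77.7, 80.4 and 78.8 FPKM at 30 rpm and 74.2, 71.6 and 73.4 FPKM at 1 rpm, SCD did not pass (0.02), and 12 of 18 sterol enzymes did not pass. FADS1 (−0.43), FASN (−0.35), ACSS2 (−0.29) and ELOVL6 (−0.28) led the fatty acid branch and INSIG1 (−0.51) and SREBF2 (−0.28) the regulators. INSIG1 had 27.8, 28.9 and 27.6 FPKM at 30 rpm and 40.9, 40.9 and 39.5 FPKM at 1 rpm, without overlap. The sterol changes were small: PMVK (−0.22), ACAT2 (−0.19), LSS (−0.16) and MVK (−0.16) fell and FDPS rose (0.16). PMVK (−0.13), LSS (−0.08) and MVK (−0.09) did not pass with median-ratio scaling, nor did ABCG1 (−0.14) with quantile normalization, beside its fall of 0.24, while ACAT2 was at −0.11 and FDPS at 0.25 with median-ratio scaling. MVK also did not pass with quantile normalization or without DRCC 1 rpm library 1 or 3 or DRCC 30 rpm library 3. With median-ratio scaling 9 members rose and 11 fell, with 7 and 1 among the sterol enzymes and 2 and 6 among the fatty acid enzymes, and with quantile normalization 3 sterol enzymes rose and 3 fell.

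AggreWell culture against 2D in HEK293T moved single genes strongly and the list as a whole little. 15 of 34 members rose, 11 fell and 8 did not pass, against 75.4% of all genes changed, 48.6% higher and 26.8% lower, with medians of 0.02 and 0.12. INSIG1 had 99.7, 106 and 98.9 FPKM in AggreWell plates and 45.4, 49.8 and 44.4 FPKM in 2D, a log2 fold change of 1.11 ± 0.042 (limma adjusted p = 9.6e-11). The AggreWell libraries were all above the 2D libraries, and the mean was the highest of any group in either line. IDI1 had 27.2, 28.7 and 26.9 FPKM in AggreWell plates and 13.4, 15.5 and 13.6 FPKM in 2D, and MSMO1 had 34.2, 33.5 and 33.7 FPKM in AggreWell plates and 17.2, 18.6 and 17.7 FPKM in 2D. Neither gene's groups overlapped. The sterol enzymes divided, 7 up and 6 down, with increases in IDI1 (0.91), SC5D (0.91), MSMO1 (0.88) and HMGCS1 (0.66) and a decrease in PMVK (−0.77). Among the fatty acid enzymes FADS1 (0.48) and SCD (0.37) rose, and ACACA (−0.30) and ACLY (−0.18) fell. STARD4 rose (0.67) and ABCG1 fell (−0.35).

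Several of these calls in HEK293T AggreWell plates turned with scaling. ACLY was 0.104 higher with quantile normalization (limma adjusted p = 8.9e-04) and did not pass with mitochondrially encoded genes left out (−0.05, adjusted p = 0.075), and SREBF2, 0.19 higher here, was at −0.0287 with median-ratio scaling (adjusted p = 0.5) and at 0.32 with mitochondrially encoded genes left out. ACLY was also at −0.41 with median-ratio scaling. Others kept their direction under these settings but changed in size: SCD was at 0.14 with median-ratio scaling and 0.62 with quantile normalization, FADS1 at 0.25 with median-ratio scaling, ACACA between −0.51 and −0.18, and STARD4 at 0.33 with quantile normalization. ABCG1, which lay under 1 FPKM in both of these groups, was at −0.68 (quantile normalization) to −0.85 (voom). With median-ratio scaling 10 members rose and 19 fell (6 and 11 sterol enzymes, 2 and 5 fatty acid enzymes, 1 and 1 regulators, 1 and 2 transport genes), and with mitochondrially encoded genes left out 19 rose and 8 fell (9 and 5 sterol enzymes, 6 and 1 fatty acid enzymes), so no direction is given for the list.

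Set against AggreWell plates, most members and most sterol enzymes were lower at both DRCC speeds in HEK293T, while the fatty acid enzymes divided at 1 rpm. At 30 rpm 4 of 34 members rose and 27 fell, against 78.5% of all genes changed, 39.9% higher and 38.7% lower, with medians of −0.59 for the members and 0.010 for all genes. At 1 rpm 8 rose and 25 fell, against 75.6% of all genes, 41.8% higher and 33.8% lower, with medians of −0.50 and 0.044. None of the 18 sterol enzymes rose at 30 rpm and 16 fell, with a median of −0.83. At 1 rpm 16 sterol enzymes fell, with a median of −0.81. Of the 9 fatty acid enzymes 1 rose and 7 fell at 30 rpm, with a median of −0.51. At 1 rpm 4 of them rose and 5 fell, with a median of −0.25. INSIG1 had 27.8, 28.9 and 27.6 FPKM at 30 rpm, 40.9, 40.9 and 39.5 FPKM at 1 rpm and 99.7, 106 and 98.9 FPKM in AggreWell plates, and IDI1 had 7.40, 7.31 and 7.07, 7.52, 8.85 and 8.03 and 27.2, 28.7 and 26.9 FPKM in the same order. Neither DRCC speed overlapped AggreWell plates for these genes. SCD (−1.78) and INSIG1 (−1.82) fell at 30 rpm, as did IDI1 (−1.79) and MSMO1 (−1.14). The exporters, which entered the fit only through the DRCC libraries, are given by level: ABCG1 had 2.31, 2.15 and 2.08 FPKM at 30 rpm and 0.560, 0.465 and 0.495 FPKM in AggreWell plates, and ABCA1 had 1.41, 1.35 and 1.37 FPKM at 30 rpm and 0.398, 0.458 and 0.416 FPKM in AggreWell plates.

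**Figure D3:**
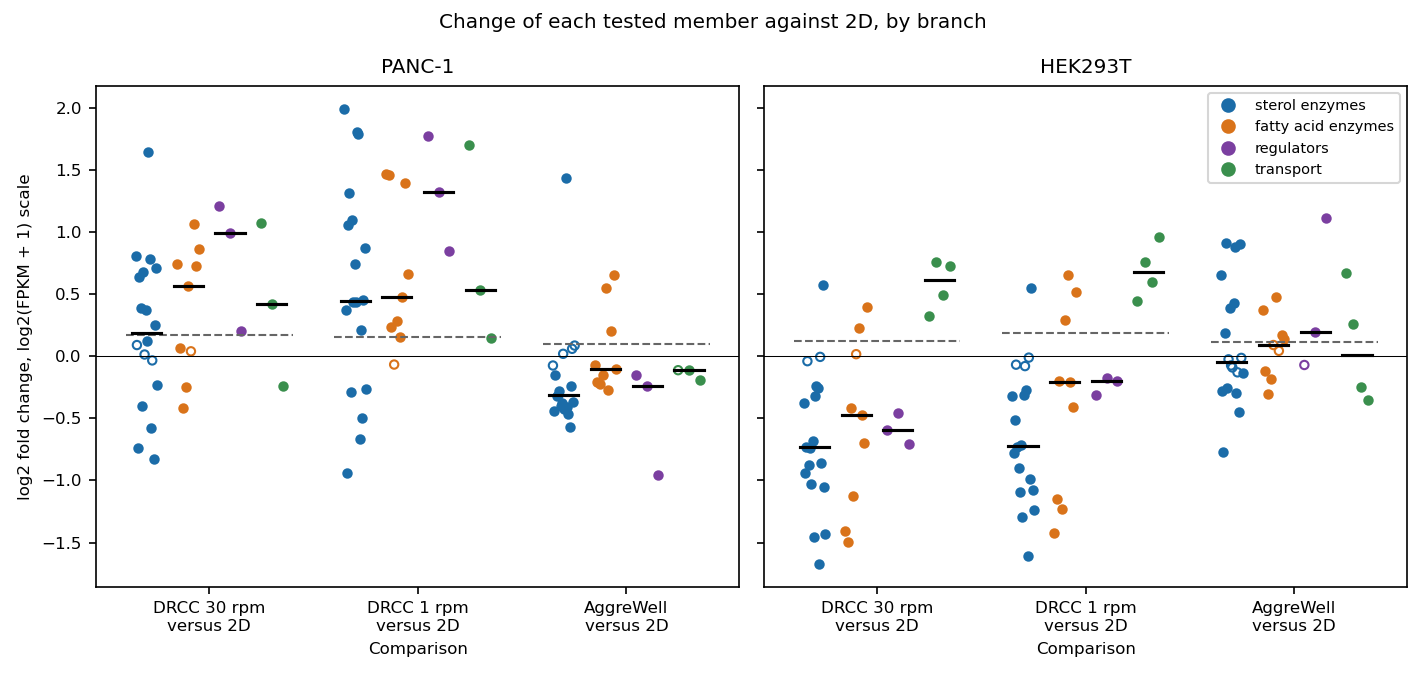
Points are log2 fold changes of the members tested against 2D for DRCC 30 rpm, DRCC 1 rpm and AggreWell, by branch and line, filled where the limma adjusted p was under 0.05, with a black bar at the branch median and a dashed line at the median of all genes. Sterol and fatty acid medians lie above 0 in PANC-1 DRCC and below 0 in HEK293T DRCC, at −0.73 for the sterol enzymes at both speeds. In PANC-1 at 30 rpm the sterol median (0.19) lies close to that of all genes (0.17), so no rise particular to these enzymes is read.

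The lines were then compared directly by the difference between their format effects, PANC-1 minus HEK293T, in 1 fit of all 24 libraries. For DRCC 1 rpm against 2D this difference was positive for 26 of 34 members, negative for 5 and did not pass for 3, against 75.8% of 13392 genes, 35.8% positive and 40.0% negative. Its median was 1.08 over the members and −0.03 over all genes. It was 1.14 over the sterol enzymes, 0.68 over the fatty acid enzymes and 1.5 over the regulators. The transport genes divided 1 against 3, or 2 against 2 with voom, and nothing is read from that, since ABCA1 and ABCG1 entered the fit through the groups where they are high.

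SCD differed most, with 2.90 ± 0.027 (SE, limma adjusted p = 1.5e-25), from log2 fold changes of 1.47 in PANC-1 and −1.43 in HEK293T. FASN (2.61 ± 0.041), HMGCS1 (2.31 ± 0.056) and FDFT1 (2.19 ± 0.041) followed. HMGCS1 reached 27.7, 28.1 and 27.8 FPKM in PANC-1 at 1 rpm and 8.80, 9.03 and 8.59 FPKM in HEK293T at 1 rpm, against mean 2D levels of 6.25 FPKM in PANC-1 and 11.3 FPKM in HEK293T. Of the 33 members tested in both lines, 17 rose in PANC-1 and fell in HEK293T with a difference that passed, against 8.35% of 10752 genes, and 0 did the reverse, against 8.34%. The 17 were the sterol enzymes HMGCS1, FDFT1, MSMO1, IDI1, LSS, DHCR7, SQLE, MVK and CYP51A1, the fatty acid enzymes SCD, FASN, ACSS2, FADS2 and ACACA, and the 3 regulators. Of these, INSIG1 did not pass in HEK293T with quantile normalization or with mitochondrially encoded genes left out, as given above. Under other scalings and with voom the count was 13 to 18, with 0 to 1 the other way. The lowest count, 13, was that with mitochondrially encoded genes left out, and the members that stay on the list under each scaling are not named.

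For DRCC 30 rpm against 2D the difference was positive for 25 members, negative for 4 and did not pass for 5, against 79.5% of all genes, 42.0% positive and 37.5% negative, with medians of 0.89 and 0.04. SCD (2.15 ± 0.027), TM7SF2 (1.89 ± 0.085), LSS (1.83 ± 0.060) and SREBF1 (1.80 ± 0.060) had the largest differences among members called in opposite directions. Of the 33 members tested in both lines, 15 rose in PANC-1 and fell in HEK293T, against 12.8% of genes, and 1, ABCA1, whose filter limit is given above, fell in PANC-1 and rose in HEK293T, against 9.1%. With mitochondrially encoded genes left out, 14 sterol enzymes were positive and 3 negative, beside 14 and 1.

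For AggreWell against 2D the lines differed the other way. The difference was positive for 7 members, negative for 18 and did not pass for 9, against 57.0% of all genes, 25.0% positive and 32.0% negative, with medians of −0.20 and −0.03. INSIG1 had 13.8, 11.8 and 13.3 FPKM in PANC-1 AggreWell plates and 99.7, 106 and 98.9 FPKM in HEK293T AggreWell plates, and its difference between lines was −2.07 ± 0.065 (limma adjusted p = 6.2e-16). MSMO1 (−1.29 ± 0.053), IDI1 (−1.22 ± 0.071) and SQLE (−0.76 ± 0.044) followed. None of the members rose in PANC-1 and fell in HEK293T, against 4.41% of genes, and 10 fell in PANC-1 and rose in HEK293T, against 3.9%. Those 10 were INSIG1, MSMO1, IDI1, SQLE, FADS1, MVD (mevalonate diphosphate decarboxylase), SCD, SREBF2, NPC1 and ACSL3. SREBF2 and NPC1 depended on scaling as given above. Fewer fatty acid enzymes fell in PANC-1 with mitochondrially encoded genes left out, and fewer rose in HEK293T with median-ratio scaling, also as given above. The list is therefore not fixed, and the members that stay on it under each scaling are not named. Under other scalings and with voom, 0 to 2 members rose in PANC-1 and fell in HEK293T, and 9 to 11 did the reverse.

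For DRCC 30 rpm against 1 rpm the difference was positive for 8 members, negative for 21 and did not pass for 5, against 63.2% of all genes, 37.9% positive and 25.3% negative, with medians of −0.26 and 0.07. FADS2 (0.85), ELOVL6 (0.56) and PMVK (0.41) rose in PANC-1 and fell in HEK293T, and EBP (−0.46) did the reverse. Of the members, 4 rose in PANC-1 and fell in HEK293T, against 14.2% of genes, and 3 did the reverse, against 8.46%, with 2 and 9 under median-ratio scaling. With mitochondrially encoded genes left out, 1 sterol enzyme was positive and 14 were negative, beside 3 and 13.

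**Figure D4:**
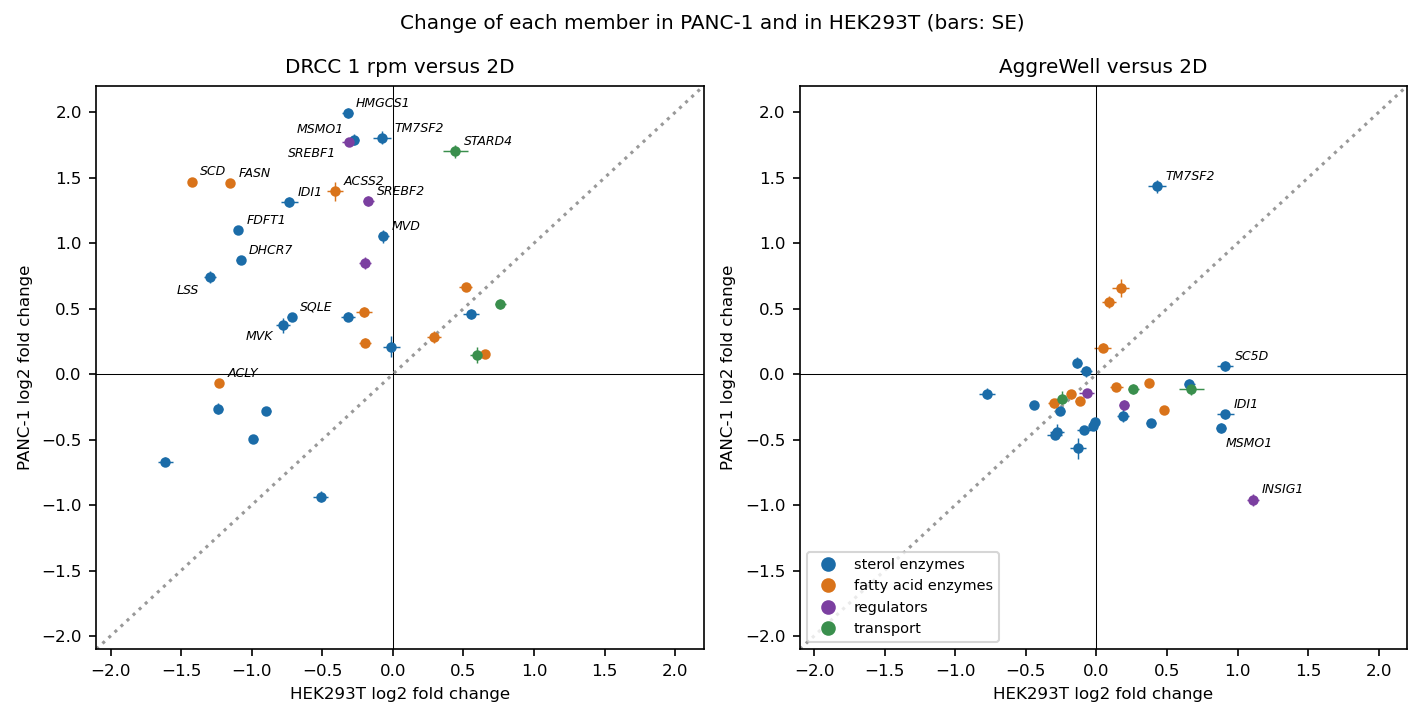
Each point is a member, with its log2 fold change against 2D and SE in PANC-1 on the vertical axis and in HEK293T on the horizontal axis, for DRCC 1 rpm and for AggreWell, and the dotted line marks equal change. At 1 rpm, 17 members that passed the test in both lines lie above 0 in PANC-1 and below 0 in HEK293T, SCD at 1.47 and −1.43 among them, while INSIG1 stands apart in AggreWell plates at −0.96 and 1.11.

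Over the 33 members tested in both lines, the log2 fold changes of the lines were only weakly related across genes: Pearson's r was 0.254 for DRCC 30 rpm against 2D, 0.139 for DRCC 1 rpm, 0.004 for AggreWell and 0.035 for 30 rpm against 1 rpm. The genes within a line share its libraries, so these values are a description.

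Other genes of lipid metabolism, in 4 lists that hold no member, were counted in the same fits, where 52.3% of all genes rose and 33.9% fell in PANC-1 at 1 rpm against 2D and 49.6% rose and 35.5% fell in HEK293T at 30 rpm against 2D. Of 15 genes for SREBP processing and sterol sensing, 7 rose and 5 fell at 1 rpm against 2D in PANC-1, and 8 rose and 5 fell at 30 rpm against 2D in HEK293T. Of other genes of isoprenoid and sterol metabolism, 3 of 11 rose and 8 fell in PANC-1 at 1 rpm, and 2 of 12 rose and 8 fell in HEK293T at 30 rpm. Of other fatty acid and glycerolipid genes, 13 of 22 rose and 5 fell in PANC-1 at 1 rpm, and 7 of 25 rose and 8 fell in HEK293T at 30 rpm. Of other cholesterol transport genes, 7 of 7 rose in PANC-1 at 1 rpm, and 6 of 8 rose, 1 fell and 1 did not pass in HEK293T at 30 rpm. The speeds set side by side here are unlike. At 1 rpm against 2D in HEK293T, 53.1% of all genes rose and 31.7% fell. There 7 of 15 processing and sensing genes rose and 5 fell, and 2 of 12 isoprenoid and sterol genes rose and 8 fell. Of the fatty acid and glycerolipid genes 12 of 25 rose and 6 fell, and of the transport genes 6 of 8 rose and 1 fell. Whether these lists differ from the members or between the lines was not tested.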

How the data were processed

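RNA of 24 libraries, 3 for each of 2 lines in 4 formats, was analysed from 1 table. The values the authors deposited are FPKM for 26450 genes, from total RNA taken with TRIzol and a VAHTS Universal V10 kit, per the labels' protocols. The submitters' processing notes name R 3.2.0, HTSeq, HISAT2 and fastp, and the build mm10, while the table holds human symbols; poly(A) selection and use of strand are not given in the sources used here. The FPKM values of 26449 genes were whole multiples of the value of 1 fragment within a tolerance of 0.01, which gave totals of 32021638 to 39556154 fragments per library.

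Values were compared on log2(FPKM + 1), a pseudocount of 1, with limma 3.58.1 in R 4.3.3 (empirical Bayes with trend), for genes with at least 1 FPKM in at least 3 libraries of the fit, in 1 fit of 12 libraries per line and 1 fit of 24 libraries for differences between lines. P-values were adjusted by Benjamini-Hochberg over all genes tested, and 0.05 was the threshold. The fits were repeated with quantile normalization or median-ratio scaling, with a filter of at least 5 FPKM on average or none, with a pseudocount of 0.1, with the 13 mitochondrially encoded genes left out, with only the groups compared, with the replicate number as a block, with voom on recovered fragments, and without each library in turn. Fold changes were printed for up to 5 sterol enzymes, 4 fatty acid enzymes, 2 regulators and 2 transport genes per comparison, by size among those past the threshold, with members that moved against most of their branch, and for up to 4 members per difference between lines, among those that moved in opposite directions. The members, lists and rules were chosen with earlier results of these data known. The fit was also run on simulated data in which few genes changed and all of these rose. In the data most genes changed, in both directions, so that run does not vouch for the calls given here. Promoter windows came from RefSeq (GRCh38.p14), matched by symbol, with Python 3.11.15. Same-numbered HEK293T libraries of DRCC 1 rpm and 2D deviated together (r of 0.145 to 0.43 over all genes). So did DRCC 1 rpm library 3 with 2D library 1 (0.226) and library 1 with 2D library 3 (0.133). Library 2 of each group was also the one that lay apart in replicate noise. The correlations therefore do not show that the numbers mark blocks. With the replicate block 31 members passed there, and 31 without. In each other pair of formats the lowest r of same-numbered libraries was at most 0.0474.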

Additional observations from a re-analysis of the deposited data

Results flagged for a closer look

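The response to format differed between the lines, by the difference itself in 1 limma fit, for 29 of 34 members in DRCC 30 rpm against 2D (79.5% of 13392 genes), 31 in DRCC 1 rpm against 2D (75.8% of genes), 25 in AggreWell against 2D (57.0% of genes) and 29 in DRCC 30 rpm against 1 rpm (63.2% of genes). Since most genes differed between the lines, these counts say little about the members. As PANC-1 minus HEK293T on the log2 scale, in DRCC 30 rpm against 2D, SCD differed by 2.15, TM7SF2 by 1.89, LSS by 1.83 and SREBF1 by 1.80. In DRCC 1 rpm against 2D, SCD differed by 2.90, FASN by 2.61, HMGCS1 by 2.31 and FDFT1 by 2.19. In AggreWell against 2D the differences ran the other way, with −2.07 for INSIG1, −1.29 for MSMO1, −1.22 for IDI1 and −0.76 for SQLE. In DRCC 30 rpm against 1 rpm they were 0.85 for FADS2, 0.56 for ELOVL6, 0.41 for PMVK and −0.46 for EBP. The line and everything that was done to each line separately cannot be told apart.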

How the results depend on the processing

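The count of members past the threshold stayed within 1.5 times its value in all 16 comparisons and all 384 alternative fits. These counts pool rises and falls, and many of the fits left out a library outside the groups compared. They therefore do not show whether directions held. Leaving out each library gave 30 to 33 members for PANC-1 DRCC 1 rpm against 2D, 25 to 27 for HEK293T AggreWell against 2D, 17 to 19 for HEK293T DRCC 30 rpm against 1 rpm and 24 to 27 for the line difference in AggreWell against 2D. The replicate block gave 31 members for PANC-1 DRCC 1 rpm against 2D (32 without) and 20 for HEK293T DRCC 30 rpm against 1 rpm (18 without). Same-numbered libraries correlated from −0.0966 to 0.286 outside the pair of formats named with the methods. No pairing is read from the numbers there or in that pair. Of 3763 refitted fold changes of named members, 3745 kept direction and side of the threshold, 16 no longer passed and 2 changed sign, ACLY in HEK293T AggreWell plates against 2D to 0.104 with quantile normalization and SREBF2 in the same comparison to −0.0287 with median-ratio scaling. A further measure, a change of size by over 1.5 times, was met by 70 of them in 38 comparisons of a gene, 21 with median-ratio scaling and 19 with quantile normalization. The split into higher and lower members changed with scaling in the comparisons where the text gives a second split, and the cause was not tested. FPKM cannot show a change in total RNA per cell, and ABCA1 and ABCG1, near 1 FPKM, rest on the fewest fragments.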
